A study of Homo sapiens with 12 samples.

Results

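The genes described here are 39 effectors that interferon induces in human cells, chosen as a named list that leaves out the IFIT genes: the OAS enzymes, the MX proteins, the ISG15 system, the interferon-induced PARPs and their partner DTX3L, membrane and nuclear restriction factors, and the chemokines CXCL10 and CXCL11. All 39 of 39 were on the arrays, which named 19775 genes in all, and each was read through the probe set of highest mean signal that was annotated to that gene alone. The 39 also passed the filter on dim probe sets that left 14061 genes for the tests. The probe set was chosen by the mean over all 12 arrays, not by a difference between groups. The list itself was chosen with earlier results of these data known, so counts over it are not an independent test.

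The study lowered KDM3A, a demethylase of lysine 9 of histone H3, by RNA interference in a pair of human cancer lines, A549 (lung adenocarcinoma, grown in RPMI1640) and SW780 (bladder carcinoma, grown in Leibovitz's L-15). Each line received siKDM3A or 1 of 2 control duplexes, siEGFP and siFFluc, named for the reporters EGFP and firefly luciferase. Each of the 6 groups held 2 arrays. Every group, controls included, had been transfected by lipofectamine 2000 with 100 nM of duplex RNA for 24 h, and no array came from cells without siRNA. The labels do not say whether the 2 arrays of a group came from separate cultures. The p-values therefore reflect how much these 12 arrays vary, which could be technical variation alone.

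When a cell detects viral RNA or another foreign duplex, it makes interferons, and these signal through JAK1 and TYK2 to a transcription factor complex that includes IRF9. This complex binds a DNA element called the ISRE in the promoters of many genes, whose products then block the entry, replication or release of viruses. Epithelial cells, including those of lung and bladder, mount this response themselves, and many of its genes are also kept at a low level without added interferon.

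KDM3A itself fell in both lines. Its signal went from 1391 ± 106 (SD, n = 4) to 702 ± 14.1 (n = 2) in A549 and from 394 ± 33.6 to 209.9 ± 18.5 in SW780, log2 changes of -0.97 ± 0.10 and -0.86 ± 0.10. Median signals of the arrays lay between 50.3 and 59.1. In A549 they were 53.1 and 51.9 with siKDM3A, below the controls at 57.4 to 59.1. In SW780 they were 58.1 and 54.3 with siKDM3A, above the controls at 50.3 to 54.2. The 2 arrays of each group correlated at 0.982 to 0.989 over probe sets, the SW780 siFFluc pair lowest. The 3′ to 5′ signal ratio of beta-actin, a measure of RNA integrity, was 1.51 and 1.61 on the SW780 siKDM3A arrays against 1.39 to 1.44 on the SW780 controls. The same ratio of GAPDH was 0.978 and 0.995 against 0.960 to 0.999, within the range of those controls. The part of these ratios in the results below was not tested. The summed signal of 6 epithelial markers was 60594 to 66894 on the A549 arrays and 119901 to 179449 on the SW780 arrays, and that of 6 urothelial markers was 1052 to 1173 and 22157 to 29463. Lung markers did not set A549 apart, with sums of 220.3 to 387 there and 250.5 to 432 in SW780 over the 5 of 6 that were on the arrays. Leukocyte markers, checked because blood cells express many of these effectors strongly, summed to 139.8 to 253.7 in A549 and 97.6 to 119.5 in SW780, with PTPRC at 24 or below on every array.

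The promoters of 5 members are shown first, because they hold in their letters the element that names the group and because these genes went in different directions in the data. Of the 39 members 32 were found in RefSeq's promoter table (build GRCh38.p14), in windows of 300 bases from 250 before to 50 after the start of transcription. The ISRE core was searched as GAAA, any 2 bases and GAAA again, on both strands with overlapping matches counted, and it is in capitals below. MX1 (chr21:41420308-41420607, plus strand), ISG15 (chr1:1013247-1013546, plus strand) and CXCL10 (chr4:76023448-76023747, minus strand) are members that rose under siKDM3A in SW780, LGALS3BP (chr17:78979874-78980173, minus strand) is the member that fell there, and DTX3L (chr3:122564088-122564387, plus strand) is a member that fell in A549. Each runs 5′ to 3′ on its gene's strand.
MX1: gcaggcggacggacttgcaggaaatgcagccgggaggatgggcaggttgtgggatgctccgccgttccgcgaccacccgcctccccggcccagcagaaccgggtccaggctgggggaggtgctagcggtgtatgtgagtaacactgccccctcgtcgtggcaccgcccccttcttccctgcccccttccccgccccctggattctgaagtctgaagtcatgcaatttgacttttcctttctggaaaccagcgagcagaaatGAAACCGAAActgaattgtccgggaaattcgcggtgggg
ISG15: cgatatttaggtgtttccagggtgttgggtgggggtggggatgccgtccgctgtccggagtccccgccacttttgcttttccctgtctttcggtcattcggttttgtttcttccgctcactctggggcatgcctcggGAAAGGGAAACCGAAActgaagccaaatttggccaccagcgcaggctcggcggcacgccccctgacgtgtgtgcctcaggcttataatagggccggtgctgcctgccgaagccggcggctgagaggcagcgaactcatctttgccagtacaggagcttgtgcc
CXCL10: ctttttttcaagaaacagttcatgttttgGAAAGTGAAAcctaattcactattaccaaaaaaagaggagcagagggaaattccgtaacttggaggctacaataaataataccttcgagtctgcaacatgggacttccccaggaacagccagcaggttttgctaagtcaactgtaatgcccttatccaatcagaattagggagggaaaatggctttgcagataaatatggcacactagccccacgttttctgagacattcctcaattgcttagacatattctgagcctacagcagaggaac
LGALS3BP: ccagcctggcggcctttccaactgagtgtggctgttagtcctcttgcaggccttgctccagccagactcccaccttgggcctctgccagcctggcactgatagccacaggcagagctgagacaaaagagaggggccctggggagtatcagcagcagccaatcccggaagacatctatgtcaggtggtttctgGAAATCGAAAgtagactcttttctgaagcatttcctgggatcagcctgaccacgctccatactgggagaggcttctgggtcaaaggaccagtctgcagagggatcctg
DTX3L: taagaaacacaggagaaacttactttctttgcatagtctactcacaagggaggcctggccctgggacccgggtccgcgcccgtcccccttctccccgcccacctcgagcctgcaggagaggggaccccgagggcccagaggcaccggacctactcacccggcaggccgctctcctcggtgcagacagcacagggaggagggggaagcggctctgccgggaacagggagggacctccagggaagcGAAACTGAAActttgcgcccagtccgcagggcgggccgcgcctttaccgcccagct

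In the windows shown the core lay 11 bases after the start in MX1. It began 113 and 107 bases before the start in ISG15, as a pair of overlapping copies. It began 221 bases before the start in CXCL10, 58 before it in LGALS3BP and 6 before it in DTX3L. A second window of MX1 (chr21:41431800-41432099) held another copy on the minus strand, 196 bases before its start. Over the 32 members found, 22 (68.8%) held the core in at least 1 window, against 4.38% of the 27305 genes in the table, and 24 of 43 member windows (55.8%) held it against 3.57% of all 35116. Of the 15 members found that rose in SW780 9 held it, and of the 17 other members 13 did. By window this was 11 of 24 and 13 of 19. PARP9, a riser, and DTX3L, one of the others, were counted for the same copy, which lies in both their windows. A second element was the gamma-activated site, searched as TTCNNNGAA on both strands (it reads the same way on each). It was in 11 of the 32 (34.4%) against 9.38% of all genes, in 8 of the 15 risers and in 3 of the 17 others. By window the risers held it in 9 of 24 and the others in 3 of 19. These matches describe letters in a window and were not tested against the expression values.

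Several members are neighbours on a chromosome in RefSeq's gene order: IFITM2, IFITM1 and IFITM3 on chromosome 11, OAS1, OAS3 and OAS2 on 12, MX2 and MX1 on 21, CXCL10 and CXCL11 on 4, HERC6 and HERC5 on 4, CMPK2 and RSAD2 on 2, SAMD9 and SAMD9L on 7, and PARP9 and DTX3L on 3. The promoter windows of PARP9 and DTX3L share 137 bases, and windows of CMPK2 and RSAD2 share 165. Members that lie side by side may not be independent of each other, which was not tested.

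The first comparison was between the lines under the control siRNAs, since it shows from what level each effector could move. All signals are the authors' MAS5 intensities, and all differences are log2 differences of signal + 16 with their standard errors from a linear model (limma), called where the p-value adjusted over the 14061 genes (Benjamini-Hochberg) was under 0.05. A549 carried most of the effectors at the higher level: 29 of the 39 were lower in the SW780 controls and 8 were higher, and XAF1 and CXCL10 were not called. Of all genes tested 68.9% differed, 38.8% lower and 30.1% higher in SW780, with a median difference of -0.11 against -0.80 for the members. The control arrays of the lines did not overlap in 27 members that were lower and in the 8 that were higher in SW780 (33.8% and 25.3% of all genes). In bulk RNA, fewer cells expressing a gene and less RNA per cell cannot be told apart.

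IFITM1, a membrane protein that hinders the fusion of incoming viruses, differed most. Its A549 control arrays read 2846 and 2802 with siEGFP and 2809 and 3111 with siFFluc, and its SW780 control arrays 47 and 72.6 with siEGFP and 42.9 and 69.7 with siFFluc. The groups were far apart, 49.8-fold in the means, a log2 difference of -5.32 ± 0.13, adjusted p = 7.18e-13 by limma. IFITM2 acts in late endosomes and read 4081 and 4302 with siEGFP and 4259.7 and 4451 with siFFluc in A549 and 266 and 351 with siEGFP and 266 and 393 with siFFluc in SW780, a 13.4-fold gap (-3.70 ± 0.11). Probe sets of IFITM1, IFITM2 and IFITM3 can share targets, because these genes are close copies of each other, so a value of 1 may hold signal of another. MX1, a GTPase that traps viral nucleocapsids, read 2234 and 2374 with siEGFP and 2903 and 2473 with siFFluc in A549 and 87.6 and 121 with siEGFP and 223 and 192 with siFFluc in SW780, and was lower in the bladder line by limma (-3.94 ± 0.09). RSAD2, which encodes viperin, an enzyme that makes a chain-terminating nucleotide, read 315 and 403 with siEGFP and 609 and 547 with siFFluc in A549 and 24.2 and 52.3 with siEGFP and 64.6 and 26.5 with siFFluc in SW780, a log2 difference of -3.08 ± 0.21. HERC5, the ligase that attaches ISG15 to newly made proteins, read 1147 and 1019 with siEGFP and 1221 and 1195 with siFFluc in A549 and 102 and 108 with siEGFP and 49.3 and 157 with siFFluc in SW780, a log2 difference of -3.35 ± 0.22. In each of these 5 genes every A549 control array was above every SW780 control array.

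A smaller set stood the other way. RTP4, a chaperone-like membrane protein, read 852 and 819 with siEGFP and 1050.5 and 1164 with siFFluc in SW780 against 15.8 and 50.1 with siEGFP and 111 and 96.5 with siFFluc in A549, where it was dim, a log2 difference of 3.72 ± 0.21, adjusted p = 2.58e-09. BST2, or tetherin, which holds budding virions on the cell surface, read 2610.0 and 2664 with siEGFP and 2661 and 3018 with siFFluc in SW780 and 237 and 397 with siEGFP and 283 and 347 with siFFluc in A549, 8.66-fold higher (3.07 ± 0.13). SAMD9L, a restriction factor of poxviruses, read 2269 and 2247 with siEGFP and 2738 and 2445 with siFFluc in SW780 against 368 and 344 with siEGFP and 382 and 396 with siFFluc in A549, 6.51-fold higher (2.65 ± 0.08). LAMP3, a lysosomal membrane protein, read 497 and 403 with siEGFP and 461 and 554 with siFFluc in SW780 against 67.7 and 89.8 with siEGFP and 117 and 71.5 with siFFluc in A549 (2.29 ± 0.17). GBP1, a GTPase that coats bacteria and virus compartments, read 4237 and 4259 with siEGFP and 4754 and 4859.6 with siFFluc in SW780 against 880.5 and 889 with siEGFP and 955 and 914 with siFFluc in A549 (2.29 ± 0.05). SAMD9 (2.07 ± 0.06), TRIM22 (2.26 ± 0.12) and LGALS3BP (0.30 ± 0.08) completed the 8. Against each control alone 34 of the 37 calls held: with siEGFP as the only control LGALS3BP (0.16 ± 0.11, adjusted p = 0.236) and SP110 (-0.20 ± 0.11, adjusted p = 0.141) were not called, and with siFFluc as the only control TRIM21 was not (-0.39 ± 0.16, adjusted p = 0.0558). SAMD9 was the brightest of them in SW780, at 6414 ± 569 (SD, n = 4).

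By function, all 4 OAS genes, both MX genes, the 4 members of the ISG15 system, the 4 of the PARP group and the 3 of the nucleotide and RNA group were lower in SW780, with group medians of -1.17, -2.37, -1.86, -1.06 and -2.21. The 8 members of the membrane group split evenly, 4 lower and 4 higher, with the secreted LGALS3BP among those higher. Of the group of GBP1, DDX60, SAMD9 and SAMD9L only DDX60, an RNA helicase, was lower in SW780 (-1.63 ± 0.09). Of the 8 nuclear and TRIM proteins 6 were lower, TRIM22 was higher and XAF1 was not called (-0.19 ± 0.13, adjusted p = 0.198). CXCL11 was lower in SW780 (-2.02 ± 0.14), while CXCL10 was dim in both lines, at 73 ± 56.5 in A549 and 45.4 ± 40.7 in SW780 (SD, n = 4), and its arrays overlapped. SP110 was the call nearest to the threshold (-0.24 ± 0.08, adjusted p = 0.0152), and it was lost without A549 siFFluc replicate 2 (adjusted p = 0.0803), SW780 siEGFP replicate 2 (0.0639) or SW780 siFFluc replicate 1 (0.0563).

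**Figure D1:**
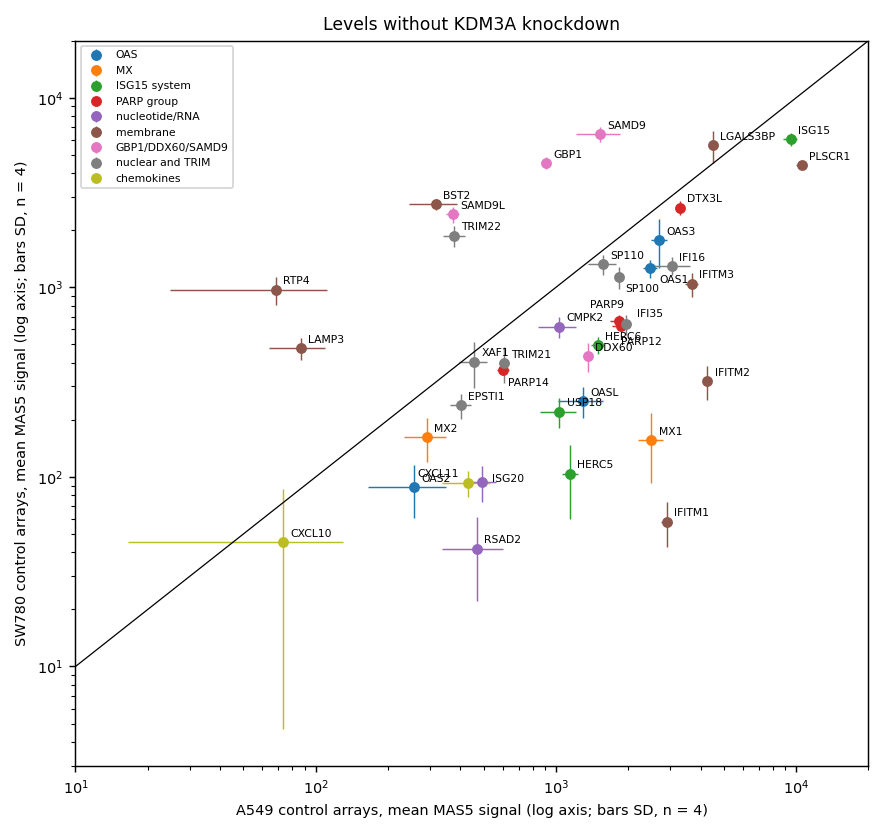
Mean MAS5 signal of each of the 39 members on the 4 A549 control arrays (x, log axis) and the 4 SW780 control arrays (y, log axis); bars are SD, colours are function groups and the diagonal marks equal signal. Most points lie below the diagonal, IFITM1, MX1 and IFITM2 farthest, and RTP4, BST2, SAMD9L and LAMP3 lie well above it.

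Under siKDM3A 19 of the 39 effectors rose in SW780, LGALS3BP fell and the other 19 were not called. The change is siKDM3A minus the average of both control groups, and 11.8% of all genes tested were called, 5.68% higher and 6.15% lower. The median change was 0.33 over the members and 0.03 over all genes. In 22 members both siKDM3A arrays were above the 4 control arrays and in 3 both were below (15.3% and 13.3% of all genes). The largest changes were those of CXCL10, RSAD2, MX1, MX2, OAS2 and XAF1, and they came from genes that were dim or moderate in the SW780 controls.

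The OAS enzymes sense duplex RNA and make the messenger that switches on RNase L. In SW780 OAS2 read 75.7 and 59.5 with siEGFP, 124 and 93.2 with siFFluc, and 245 and 247 with siKDM3A, a change of 1.37 ± 0.17, adjusted p = 0.000297 by limma. Both siKDM3A arrays lay above the brightest control, and the siFFluc pair lay above the siEGFP pair. OAS1 read 1259.9 and 1197 with siEGFP, 1133 and 1445 with siFFluc, and 1842 and 2162 with siKDM3A (0.66 ± 0.09, adjusted p = 0.00085), with the siKDM3A arrays again on top and the control groups overlapping. OASL, which has no enzyme activity and boosts RNA sensing instead, read 190.1 and 241 with siEGFP, 301 and 271 with siFFluc, and 369.8 and 347 with siKDM3A (0.51 ± 0.11, adjusted p = 0.0121). Its 3 groups did not overlap, in the order siEGFP, siFFluc, siKDM3A.
OAS3, the third enzyme, was not called (-0.25 ± 0.13, adjusted p = 0.254). Its arrays read 1417 and 1504 with siEGFP, 2519.7 and 1665 with siFFluc, and 1359 and 1554 with siKDM3A, and siFFluc replicate 1 stood above the others. OAS3 was added to the genes shown array by array after its values were seen.

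Both MX genes rose. MX1 read 87.6 and 121 with siEGFP, 223 and 192 with siFFluc, and 568 and 558 with siKDM3A, a change of 1.83 ± 0.12, adjusted p = 2.43e-06, or 3.61-fold in the means. No group overlapped another: the siFFluc arrays were above the siEGFP arrays and the siKDM3A arrays were above both. MX2, which blocks nuclear import of retroviral genomes, read 153 and 155 with siEGFP, 119 and 220.1 with siFFluc, and 476 and 413 with siKDM3A (1.40 ± 0.21, adjusted p = 0.00133). Here the controls overlapped, and both siKDM3A arrays lay well above them.

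ISG15 is a ubiquitin-like protein that is attached to other proteins, HERC5 attaches it and USP18 removes it and also restrains the interferon receptor. ISG15, already bright, read 5798 and 5924 with siEGFP, 5667 and 6721 with siFFluc, and 9164 and 8919.7 with siKDM3A (0.59 ± 0.08, adjusted p = 0.000536), with no overlap between siKDM3A and control arrays. USP18 read 205 and 199 with siEGFP, 279 and 200.2 with siFFluc, and 304 and 384 with siKDM3A (0.61 ± 0.14, adjusted p = 0.0127), and its siFFluc replicate 1 came close to the lower siKDM3A array. HERC6, a relative of HERC5, read 502 and 557 with siEGFP, 479.9 and 437 with siFFluc, and 603 and 605 with siKDM3A, a small change of 0.29 ± 0.08, adjusted p = 0.0405. The 2 siKDM3A arrays agreed closely and were above the 4 controls. HERC5 was at 104 ± 44 in the controls and 193 ± 18.5 with siKDM3A, and its change of 0.88 ± 0.27 did not pass (adjusted p = 0.0508), although both siKDM3A arrays lay above the controls.

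PARP9 and DTX3L form a complex that modifies histones and viral proteins, and PARP12 and PARP14 add ADP-ribose to proteins. Of these 4, PARP9 alone rose, with 724 and 598 with siEGFP, 658 and 685 with siFFluc, and 850.5 and 989 with siKDM3A (0.46 ± 0.09, adjusted p = 0.00682), siKDM3A above all controls. DTX3L, whose start lies next to that of PARP9, read 2550.0 and 2490.5 with siEGFP, 2949 and 2534 with siFFluc, and 2215 and 2466 with siKDM3A and was not called (-0.17 ± 0.08, adjusted p = 0.185). Its siKDM3A arrays were the lowest 2 of the 6. PARP12 read 576 and 631 with siEGFP, 656 and 624 with siFFluc, and 565 and 616 with siKDM3A and its groups overlapped (-0.07 ± 0.09, adjusted p = 0.673). PARP14 had a change of -0.03 ± 0.12 (adjusted p = 0.919).

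RSAD2 and its neighbour CMPK2, a nucleotide kinase that supplies it with substrate, both rose. RSAD2 read 24.2 and 52.3 with siEGFP, 64.6 and 26.5 with siFFluc, and 187 and 193 with siKDM3A, a change of 1.89 ± 0.26, adjusted p = 0.000721. The controls were dim and uneven, while both siKDM3A arrays were close together above them. CMPK2 read 558 and 676 with siEGFP, 549.9 and 699.9 with siFFluc, and 1154 and 979 with siKDM3A (0.77 ± 0.12, adjusted p = 0.00176), again without overlap. ISG20, an exonuclease of viral RNA, read 96.2 and 91.3 with siEGFP, 70.2 and 119.7 with siFFluc, and 84.4 and 113 with siKDM3A and its siKDM3A arrays lay within the range of the controls (0.06 ± 0.19, adjusted p = 0.892).

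Of the 8 members of the membrane group, which includes the secreted LGALS3BP, 2 rose and 1 fell. PLSCR1, a scramblase that interferes with virus entry, read 4549 and 4386 with siEGFP, 4211 and 4519 with siFFluc, and 6444 and 6024 with siKDM3A (0.50 ± 0.06, adjusted p = 0.000303), siKDM3A above all controls. IFITM1 read 47 and 72.6 with siEGFP, 42.9 and 69.7 with siFFluc, and 93.7 and 97.6 with siKDM3A (0.62 ± 0.16, adjusted p = 0.0245), a rise that left it dim. LGALS3BP, a secreted galectin-binding glycoprotein, read 5077 and 4858 with siEGFP, 7227 and 5272 with siFFluc, and 3764 and 3763 with siKDM3A and fell (-0.56 ± 0.09, adjusted p = 0.00258). Both siKDM3A arrays were below the lowest control, and siFFluc replicate 1 was high, as it was for OAS3; without that array LGALS3BP kept the call (adjusted p = 0.000324). IFITM2 and IFITM3 had changes of 0.04 ± 0.13 and 0.15 ± 0.06 that did not pass. BST2 at -0.28 ± 0.16, LAMP3 at 0.51 ± 0.21 and RTP4 at -0.03 ± 0.25 did not pass either.

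Among GBP1, DDX60, SAMD9 and SAMD9L, DDX60 rose. It read 324 and 440.3 with siEGFP, 469 and 495 with siFFluc, and 542 and 644 with siKDM3A (0.45 ± 0.11, adjusted p = 0.0225), in the order siEGFP, siFFluc, siKDM3A. GBP1 read 4237 and 4259 with siEGFP, 4754 and 4859.6 with siFFluc, and 5018 and 4956 with siKDM3A in the same order with no overlap, but the change was small and not called (0.14 ± 0.06, adjusted p = 0.147). SAMD9 read 6549.9 and 6986 with siEGFP, 6491 and 5628 with siFFluc, and 5334 and 5878 with siKDM3A and was not called (-0.19 ± 0.08, adjusted p = 0.136), with 1 siKDM3A array below all controls and 1 among them. SAMD9L had a change of -0.04 ± 0.09.

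Of the nuclear and TRIM proteins 3 of 8 rose. XAF1, which binds the apoptosis inhibitor XIAP, read 346 and 331 with siEGFP, 376 and 570.5 with siFFluc, and 925 and 937 with siKDM3A (1.20 ± 0.15, adjusted p = 0.000406), and EPSTI1, an interferon-induced protein first described in epithelial and stromal cells grown together, read 211 and 204 with siEGFP, 266 and 273 with siFFluc, and 398 and 386 with siKDM3A (0.69 ± 0.11, adjusted p = 0.00156). In both genes the 3 groups were ordered siEGFP, siFFluc, siKDM3A without overlap. SP110, a nuclear body protein, read 1299.7 and 1178 with siEGFP, 1250.3 and 1561 with siFFluc, and 1643 and 1675 with siKDM3A (0.33 ± 0.10, adjusted p = 0.0455), the call nearest to the threshold. IFI16, a DNA sensor, IFI35, SP100, TRIM21, an antibody receptor of the cytosol, and TRIM22 were not called, with changes between -0.10 and 0.16.

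CXCL10 and CXCL11 draw T cells through the receptor CXCR3. CXCL10 had the largest change of the 39. It read 13.1 and 46.8 with siEGFP, 102 and 19.3 with siFFluc, and 303 and 244 with siKDM3A, a change of 2.45 ± 0.49, adjusted p = 0.00633. The 4 controls were spread widely and dim, and both siKDM3A arrays were above the brightest. CXCL11 read 100.3 and 82.8 with siEGFP, 79.1 and 110.5 with siFFluc, and 179 and 226 with siKDM3A (1.00 ± 0.18, adjusted p = 0.00301), with all 4 controls close together below siKDM3A.

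**Figure D2:**
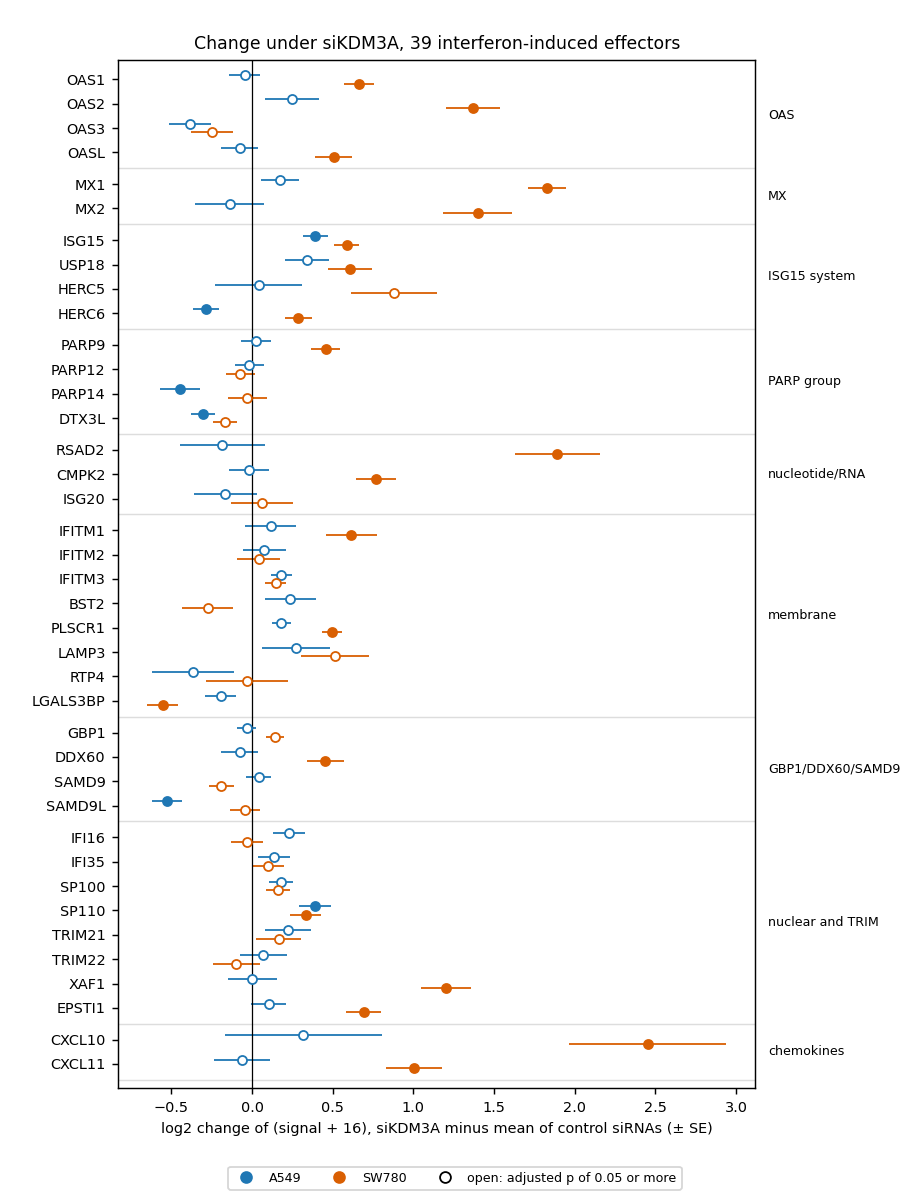
Log2 change of signal + 16 under siKDM3A against the average of the control siRNAs (x) for the 39 members by function group (y), in A549 (blue) and SW780 (orange); bars are standard errors, and filled points have an adjusted p under 0.05. The filled SW780 points lie to the right of 0 except LGALS3BP, while most A549 points are open and near 0.

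**Figure D3:**
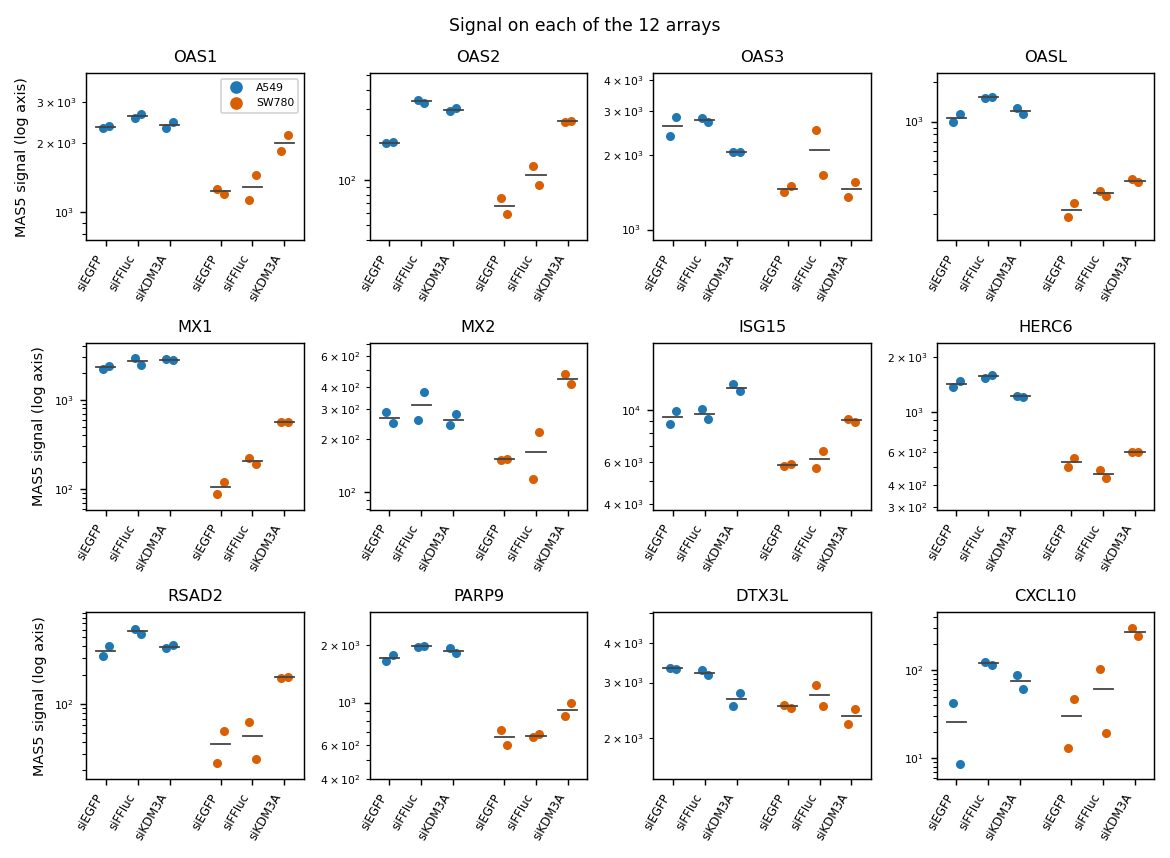
MAS5 signal (log axis) of 12 members on each of the 12 arrays, by siRNA, in A549 (blue) and SW780 (orange); short lines are group means. In SW780 the siKDM3A arrays are above all controls for OAS1, OAS2, OASL, MX1, MX2, ISG15, HERC6, RSAD2, PARP9 and CXCL10, but not for OAS3 and DTX3L.

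Of the 20 calls 11 held with any 1 of the 12 arrays left out and under the other settings tried, those of MX1, MX2, OAS1, OAS2, ISG15, RSAD2, CMPK2, PLSCR1, XAF1, EPSTI1 and CXCL11. Without SW780 siKDM3A replicate 2 the risers numbered 12, and the calls of USP18 (adjusted p = 0.158), PARP9 (0.105), DDX60 (0.223), IFITM1 (0.139), OASL (0.0567), HERC6 (0.172) and SP110 (0.209) were lost. Without SW780 siKDM3A replicate 1 those lost were CXCL10 (adjusted p = 0.0726), OASL (0.105), IFITM1 (0.111), HERC6 (0.167) and SP110 (0.176). Without SW780 siEGFP replicate 1 the calls of DDX60 (adjusted p = 0.054) and IFITM1 (0.0639) were lost as well. HERC6 and SP110, the weakest calls, were each lost in 9 of the 12 fits with 1 array left out. Members called lower numbered 4 without SW780 siFFluc replicate 2. Of 6 epithelial markers KRT8 (-0.34 ± 0.09) and CDH1 (-0.26 ± 0.08) were lower under siKDM3A in SW780. Of 5 urothelial markers tested UPK1B was (-0.26 ± 0.07), and the other markers of both lists were not called. Of all genes 6.15% were lower. The part of these markers in the changes of the effectors was not tested.

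The rises were also read against each control duplex alone. MX1 was 2.28 ± 0.13 above siEGFP and 1.38 ± 0.13 above siFFluc, and OAS2 was 1.65 ± 0.19 and 1.08 ± 0.19. OASL passed against siEGFP (0.70 ± 0.13, adjusted p = 0.00756) and not against siFFluc (0.31 ± 0.13, adjusted p = 0.136), and DDX60 went the same way (0.62 ± 0.13 and 0.28 ± 0.13). The controls themselves differed for MX1, while their differences did not pass for OAS2 (0.57 ± 0.19, adjusted p = 0.109), OASL (0.39 ± 0.13, adjusted p = 0.103) and DDX60 (0.34 ± 0.13, adjusted p = 0.166). ISG15 (0.62 ± 0.09 and 0.55 ± 0.09), PLSCR1 (0.48 ± 0.07 and 0.51 ± 0.07) and RSAD2 (1.97 ± 0.30 and 1.81 ± 0.30) had nearly the same rise against either control. Against siEGFP alone 17 members were higher and 0 lower (2.95% and 3.24% of all genes), with LGALS3BP at -0.40 ± 0.11, adjusted p = 0.0503. Against siFFluc alone 17 were higher and 2 lower (6.96% and 7.24% of all genes), LGALS3BP (-0.71 ± 0.11) and OAS3 (-0.49 ± 0.15, adjusted p = 0.0464). Of the 20 calls 13 held against each control taken alone.
The order siEGFP, siFFluc, siKDM3A without overlap of arrays was seen in 7 members, OAS2, OASL, MX1, GBP1, DDX60, XAF1 and EPSTI1, and in 2.32% of all genes tested.

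**Figure D4:**
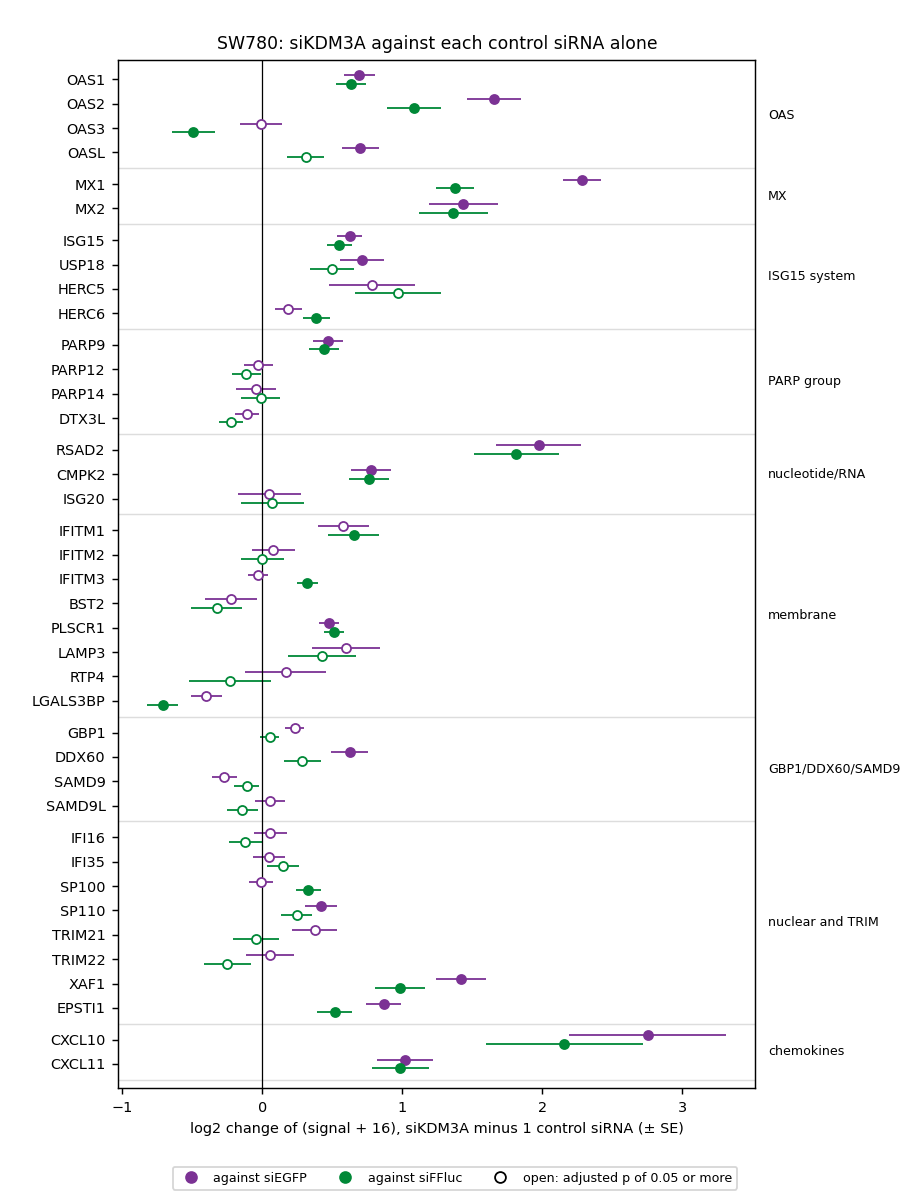
Log2 change of signal + 16 in SW780 under siKDM3A against siEGFP alone (purple) and against siFFluc alone (green) for the 39 members (y); bars are standard errors, and filled points have an adjusted p under 0.05. MX1, OAS2, OASL and DDX60 lie farther to the right against siEGFP, and LGALS3BP and OAS3 lie farther to the left against siFFluc.

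Set beside the levels of the lines, the rise did not bring most of these genes to the level of A549. Of the 19 risers 14 remained, under siKDM3A, below the mean of the A549 controls: MX1 went from 6.24% to 22.6% of that mean, RSAD2 from 8.95% to 40.5% and IFITM1 from 2.01% to 3.31%. OAS2 (95.9%), ISG15 (95.4%) and EPSTI1 (97.2%) came near to it. CXCL10 (375%), XAF1 (204%), MX2 (153%), SP110 (106%) and CMPK2 (104%) ended above it. The risers comprised 17 of the 29 members that were lower in SW780 controls, none of the 8 that were higher there, and both members not called between the lines. Since the same SW780 control arrays enter both comparisons, these counts are a description and were not tested.

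In A549 few of the effectors passed. Of the 39 members 2 were called higher and 4 lower, where 11.7% of all genes tested were called, 5.33% higher and 6.35% lower, and the median change was 0.04 against -0.02 over all genes. In 8 members both siKDM3A arrays were above the 4 controls and in 6 both were below (17.0% and 19.9% of all genes). ISG15 read 8744 and 9903 with siEGFP, 10087 and 9185 with siFFluc, and 12822 and 12031 with siKDM3A (0.39 ± 0.08, adjusted p = 0.00634). SP110 read 1397 and 1460.5 with siEGFP, 1556 and 1870.2 with siFFluc, and 1989 and 2114 with siKDM3A (0.39 ± 0.10, adjusted p = 0.0226). In both, the siKDM3A arrays were above all controls.

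The members that fell were led by SAMD9L. It read 368 and 344 with siEGFP, 382 and 396 with siFFluc, and 226 and 282 with siKDM3A, a change of -0.53 ± 0.09, adjusted p = 0.00319. DTX3L read 3348 and 3308 with siEGFP, 3281 and 3171 with siFFluc, and 2531 and 2782 with siKDM3A (-0.30 ± 0.08, adjusted p = 0.0214), and PARP14, a second member of the PARP group, read 556 and 625 with siEGFP, 593 and 632 with siFFluc, and 386 and 492 with siKDM3A (-0.45 ± 0.12, adjusted p = 0.033). HERC6, which rose in SW780, read 1378 and 1473 with siEGFP, 1534 and 1594 with siFFluc, and 1230.3 and 1214 with siKDM3A (-0.29 ± 0.08, adjusted p = 0.0416). In all 4 of these genes both siKDM3A arrays were below the 4 controls.
OAS3 was also below its controls on both siKDM3A arrays, at 2054 and 2055 against 2394 to 2847, without passing (-0.39 ± 0.13, adjusted p = 0.0764).

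The members with the largest rises in SW780 were not called in A549. MX1 read 2234 and 2374 with siEGFP, 2903 and 2473 with siFFluc, and 2853 and 2756 with siKDM3A (0.17 ± 0.12, adjusted p = 0.397), with siKDM3A and siFFluc overlapping. RSAD2 read 315 and 403 with siEGFP, 609 and 547 with siFFluc, and 383 and 412 with siKDM3A (-0.19 ± 0.26, adjusted p = 0.73), with the siKDM3A mean between the control means and its arrays overlapping with siEGFP. CXCL10 read 42.7 and 8.7 with siEGFP, 125 and 116 with siFFluc, and 89 and 60.6 with siKDM3A (0.32 ± 0.49, adjusted p = 0.757), with both siKDM3A arrays between those of the controls. XAF1 (0.00 ± 0.15), OAS1 (-0.05 ± 0.09), CMPK2 (-0.02 ± 0.12) and MX2 (-0.14 ± 0.21) did not pass.
In 14 members the siKDM3A mean lay between the 2 control means, and this was so for 25.6% of all genes.

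None of the 6 calls in A549 held in each fit with 1 array left out: without A549 siKDM3A replicate 1 the calls numbered 0 higher and 0 lower, with adjusted p-values from 0.0712 for SAMD9L to 0.361 for PARP14. The split also moved with the scaling. Setting each array to the same median shifted the median change of all genes from -0.02 to 0.12 and gave 8 members higher and 1 lower. SAMD9L was the member that stayed lower. The share of all genes called under that scaling was not counted. Without SW780 siFFluc replicate 1 the counts were 4 and 6, without SW780 siFFluc replicate 2 they were 5 and 6, without A549 siFFluc replicate 1 they were 1 and 1, without A549 siKDM3A replicate 2 they were 1 and 2, and without A549 siEGFP replicate 1 they were 1 and 3. The lower calls numbered 2 with A549 siEGFP replicate 2 left out, and 2 with A549 siFFluc replicate 2 left out. The leukocyte markers, dim on every array, summed to 139.8 and 189.3 on the A549 siKDM3A arrays and 230.7 to 253.7 on the A549 controls. The lung markers summed to 220.3 and 279.6 against 299 to 387, with SFTPB the 1 called of 3 tested (-0.78 ± 0.17). The list did not move as a whole. SFTPC and SFTPD had higher means with siKDM3A than with the controls, 53.15 against 39.1 and 18.9 against 8.4. NAPSA and NKX2-1 had lower ones, 70.1 against 102.6 and 7.9 against 9.9. The part of these in the changes was not tested.

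Whether the response differed between the lines was tested directly, as the SW780 change minus the A549 change. It was larger in SW780 for 9 of the 39 members and smaller for 0. Of all genes tested 2.75% were called, 1.78% larger and 0.974% smaller. By limma at an unadjusted p under 0.05 the members numbered 19 larger and 2 smaller, beside 18.2% of all genes in either direction. The widest gaps were those of RSAD2 (2.08 ± 0.37, adjusted p = 0.0164) and MX1 (1.66 ± 0.16, adjusted p = 0.000686). MX2 (1.54 ± 0.30, adjusted p = 0.0254), XAF1 (1.20 ± 0.22, adjusted p = 0.0176), OAS2 (1.12 ± 0.24, adjusted p = 0.0325) and CXCL11 (1.07 ± 0.25, adjusted p = 0.0421) followed. CMPK2 (0.79 ± 0.17, adjusted p = 0.0359), OAS1 (0.71 ± 0.13, adjusted p = 0.022) and HERC6 (0.57 ± 0.12, adjusted p = 0.0282) completed the 9. HERC6 was the gene called in opposite directions, higher in SW780 and lower in A549. ISG15 rose in both lines and its difference was not called (0.20 ± 0.11, adjusted p = 0.375), nor was that of SP110 (-0.06 ± 0.14, adjusted p = 0.868). CXCL10 had the largest difference, but its spread was large (2.14 ± 0.69, adjusted p = 0.119).
Of these 9 the difference of MX1 held with any 1 array left out and under every setting tried. The count was 1 without A549 siKDM3A replicate 1, A549 siKDM3A replicate 2 or SW780 siKDM3A replicate 2, 2 without SW780 siKDM3A replicate 1, 3 without A549 siFFluc replicate 2 and 5 without A549 siEGFP replicate 2, A549 siFFluc replicate 1 or SW780 siEGFP replicate 1, and it was 2 with siEGFP as the only control. Setting the arrays to the same median moved the median difference of all genes from 0.04 to -0.21 and gave 8 members larger and 4 smaller. Here too the share of all genes called was not counted.

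The control duplexes were compared with each other because they set the baseline of everything above. In A549 the siFFluc mean was the higher in 35 of 39 members, against 52.0% of all genes tested, with a median difference of 0.16 against 0.01. Both siFFluc arrays were above both siEGFP arrays in 24 members and below them in 1 (24.4% and 21.7% of all genes). Those called were 3 higher and 0 lower, where 2.92% of all genes were called, 1.43% higher and 1.49% lower. By limma at an unadjusted p under 0.05 the members numbered 11 higher and 0 lower, beside 12.8% of all genes in either direction. SAMD9 read 1293 and 1238 with siEGFP and 1895 and 1708 with siFFluc (0.50 ± 0.09, adjusted p = 0.0067). RTP4 read 15.8 and 50.1 with siEGFP and 111 and 96.5 with siFFluc (1.38 ± 0.29, adjusted p = 0.0219), dim on each array. Without A549 siEGFP replicate 1 its difference was 0.85 (adjusted p = 0.134 by limma), and it was not called without A549 siFFluc replicate 1 (0.155) or A549 siFFluc replicate 2 (0.0901) either. OAS2 read 177 and 179 with siEGFP and 344 and 326 with siFFluc (0.85 ± 0.19, adjusted p = 0.0309), which put siFFluc above siKDM3A at 288 and 300.3.
CXCL10 had a larger difference (1.84 ± 0.56, adjusted p = 0.132), which did not pass, and its 2 siEGFP arrays, 42.7 and 8.7, lay far apart. OASL (0.51 ± 0.13, adjusted p = 0.0581) and IFI16 (0.46 ± 0.12, adjusted p = 0.0545) came close to the threshold. Each of the 3 calls was lost in some of the fits with 1 array left out. Such a fit leaves a single array in its group, so a call can be lost while the difference stays. The OAS2 difference was 0.82 to 0.89 with any 1 A549 array left out, and the lowest SAMD9 difference was 0.43. The SW780 arrays enter this comparison through the shared estimate of spread.

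In SW780 siFFluc was above siEGFP in the mean of 30 of 39 members (50.8% of all genes), without overlap in 14 and below without overlap in 4 (23.6% and 22.3%). MX1 was called higher, and IFITM3 and SP100 lower (5.57% of all genes were called, 2.97% higher and 2.60% lower). MX1 was at 104 ± 23.3 with siEGFP and 208 ± 21.5 with siFFluc (SD, n = 2), 1.99-fold apart (0.91 ± 0.13, adjusted p = 0.00271). IFITM3, which guards late endosomes, read 1139 and 1205 with siEGFP and 929 and 901 with siFFluc (-0.35 ± 0.07, adjusted p = 0.0177), and SP100, a nuclear body protein, read 1295 and 1234 with siEGFP and 993 and 1003 with siFFluc (-0.34 ± 0.09, adjusted p = 0.0416). In both genes the siKDM3A arrays overlapped with the siEGFP arrays, at 1098 and 1198 for IFITM3 and 1327 and 1192 for SP100. IFITM3 was not called without SW780 siEGFP replicate 2 (adjusted p = 0.149), and SP100 was lost without any 1 of 9 arrays (highest adjusted p = 0.197, without SW780 siEGFP replicate 1). MX1 kept its call without each array; the higher calls numbered 4 without SW780 siFFluc replicate 2 and 2 without SW780 siEGFP replicate 1 or SW780 siFFluc replicate 1.
Epithelial markers differed between these controls too, 4 of 6 being higher with siFFluc (KRT18, KRT19, KRT7 and CDH1). Their part in the differences of the effectors was not tested. The siKDM3A comparisons use the same control arrays, so the values of both comparisons stand side by side here and no relation between them was computed.

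**Figure D5:**
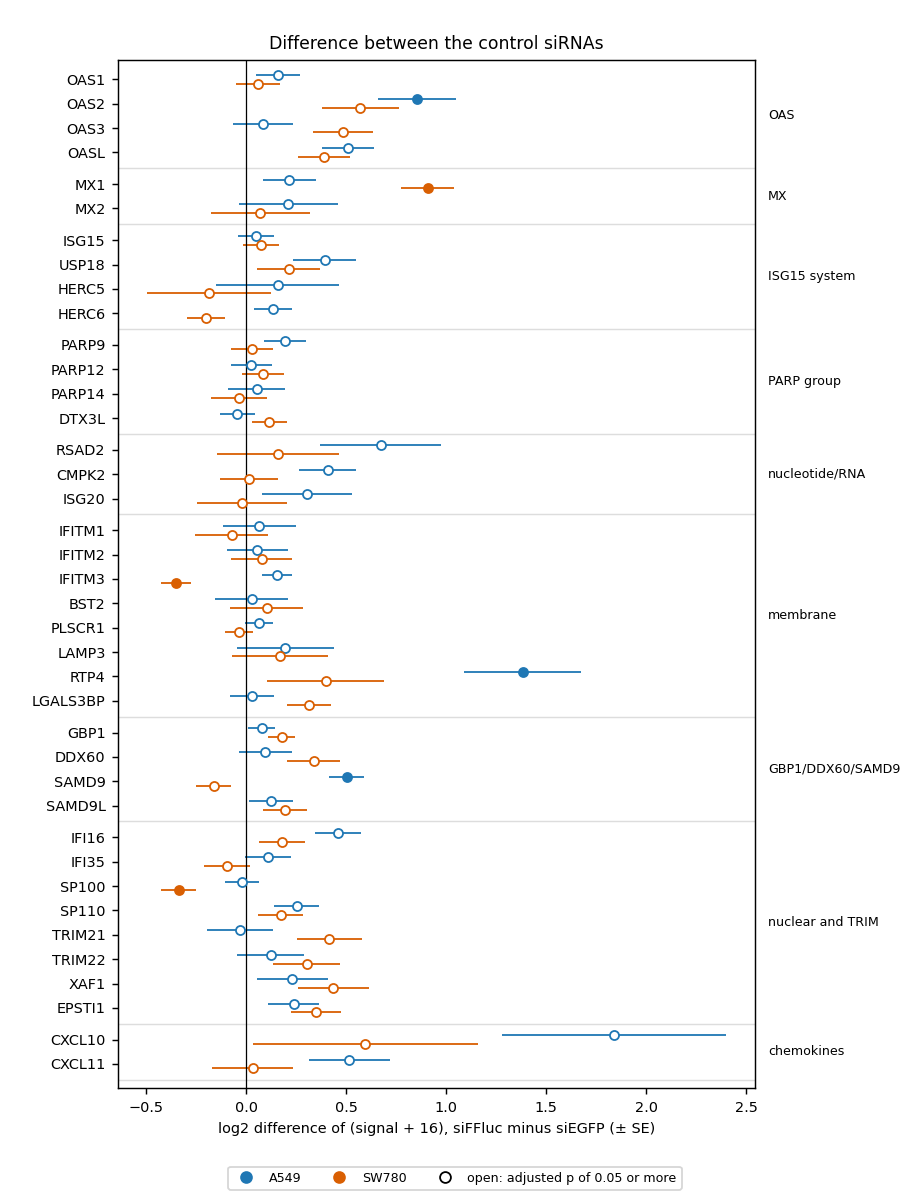
Log2 difference of signal + 16 between the control siRNAs, siFFluc minus siEGFP (x), for the 39 members (y) in A549 (blue) and SW780 (orange); bars are standard errors, and filled points have an adjusted p under 0.05. Most points lie right of 0 in both lines, filled for SAMD9, RTP4 and OAS2 in A549 and for MX1 in SW780, while IFITM3 and SP100 are filled on the left in SW780.

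The rest of the pathway was read from a list of its other genes, of which 33 were tested. This list too was chosen with earlier results of these data known. In SW780 under siKDM3A 12 of the 33 were higher and 2 lower, beside 5.68% and 6.15% of all genes. Of the IFIT and IFI family 7 of 8 rose, led by IFIT1 (2.13 ± 0.07) and IFI27 (2.26 ± 0.08). Of 7 signalling kinases and factors IRF9, a DNA-binding factor of the interferon response, rose from 341 ± 43.8 to 1139.7 ± 109 (1.70 ± 0.08, adjusted p = 6.44e-08), IRF7 rose (0.84 ± 0.13), and JAK1 (-0.39 ± 0.07) and IRF3 (-0.42 ± 0.09) fell. Of 6 RNA sensors and effectors EIF2AK2 (0.40 ± 0.08) and RIGI (0.35 ± 0.09) rose, and of 9 ligands and receptors IL10RB did (0.35 ± 0.10).
In A549 3 of the 33 were higher, IFIT1 (0.52 ± 0.07), IFIT3 (0.32 ± 0.09) and IFIT2 (0.33 ± 0.10), and 1 was lower, IFNLR1, a receptor chain of the lambda interferons (-0.58 ± 0.15), beside 5.33% and 6.35% of all genes. Between the controls 1 of the 33 was called in A549, IFIT2 higher with siFFluc (0.71 ± 0.11), and 5 in SW780, among them EIF2AK2 (0.77 ± 0.09) and IFI27 (0.77 ± 0.09), each higher with siFFluc. Of all genes 2.92% and 5.57% were called in these comparisons.

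Transcripts of the interferons themselves were mostly near the floor of the arrays. IFNB1 read 1.6 to 5.7 in A549 and 1.9 to 3.2 in SW780 over the 6 arrays of a line. IFNL1 read 8.6 to 51.3 and 4.6 to 68.5. IFNA1 read 2.3 to 27.3 in A549. In SW780 it read 1.8 to 10.3 with the controls and 24.2 and 27.8 with siKDM3A. It was too dim to pass the filter and was not tested. IFNK, a type I interferon of epithelia, was the exception in A549, at 837 ± 46.2 with the controls and 1162 ± 54.3 with siKDM3A (0.47 ± 0.23, adjusted p = 0.229), and read 2 to 25.4 in SW780.

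Other probe sets of the members bear on how far the values depend on the one chosen. Of the 39 members 17 had 29 further probe sets above the filter. For members called under siKDM3A in SW780, 13 of 14 such probe sets had the sign of the one used and 9 of the 14 were called as well, among them the second probe sets of RSAD2 (2.41 ± 0.20) and of OAS1 (0.58 ± 0.08). The exception in sign was 1 of SP110 (-0.10). A second probe set of SP100 was called higher there (0.31 ± 0.09, adjusted p = 0.0413 by limma over all probe sets), where the one used was not (0.16 ± 0.08, adjusted p = 0.199). In A549 5 of 7 further probe sets of called members had the sign of the one used and 1 of the 7 was called, 1 of SP110 (0.41 ± 0.09). Both exceptions in sign were of SP110 (-0.37 ± 0.17 and -0.19 ± 0.36). In that line a second probe set of PARP9 fell (-0.81 ± 0.17, adjusted p = 0.0085 by limma over all probe sets), while the one used was not called (0.02 ± 0.09, adjusted p = 0.916). Between the lines 24 of 27 further probe sets of called members had the same sign, and 2 were called in the opposite direction, 1 of OAS2 and 1 of SP100.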

How the data were processed

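RNA of 12 samples, 2 in each of 6 groups, was hybridised to Affymetrix human U133 Plus 2.0 arrays. The deposited values are linear MAS5 signal intensities, with a trimmed mean of 500.1 on each array (2% left out at each end). MAS5 is named per the submitters' processing notes, with no version given in the sources used here. Detection calls were not used here. MAS5 by design subtracts mismatch signal, which makes dim probe sets noisy.

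Of 54675 probe sets 41091 had 1 gene symbol, 1801 several and 11721 none, and 62 were controls. Probe sets with a mean signal of at least 33.6 (the 40th percentile) were kept, and the brightest was taken for each gene. The values log2(signal + 16), which understate changes of dim genes, were fitted with limma 3.58.1 (lmFit, eBayes with trend; R 4.3.3) with 6 group means over all 12 arrays, and p-values were adjusted by Benjamini-Hochberg over 14061 genes. Calls had an adjusted p under 0.05. The pipeline was tested on simulated data. Precision is limited by the 2 arrays of a group.

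Groups came from the labels. Replicate numbers did not pair arrays, since same-numbered arrays' deviations from their group means correlated at -0.030 to 0.019. The members and lists were chosen with earlier results of these data known. Genes described array by array were up to 3 per function, the A549 calls, the 5 members farthest apart between lines each way and up to 3 calls between controls per line, with OAS3 added. Of other genes up to 2 of smallest p per list were named, and IFIT2 in A549, JAK1, IRF3, CDH1, KRT7, IFNB1, IFNL1 and IFNK were named after their values were seen. The alternatives were the pseudocount, the filter, normalisation, the choice of probe set, the variance prior, the arrays fitted, the control used, a replicate block and leaving out each array. RefSeq (GRCh38.p14) gave promoter sequences and gene order. The promoters of OAS2, OASL, MX2, USP18, IFITM2, LAMP3 and TRIM22 were not used here.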

Additional observations from a re-analysis of the deposited data

Results flagged for a closer look

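The siKDM3A change differed between the lines, by limma's test of the difference itself, in 9 of the 39 members, each with the larger change in SW780. On the log2 scale the SW780 change exceeded the A549 change by 2.08 in RSAD2, 1.66 in MX1, 1.54 in MX2, 1.20 in XAF1, 1.12 in OAS2, 1.07 in CXCL11, 0.79 in CMPK2, 0.71 in OAS1 and 0.57 in HERC6. HERC6 is the gene among them that was called in both lines, in opposite directions. Its call was lost in 10 of the 12 fits with 1 array left out in A549, in 9 of 12 in SW780 and in 8 of 12 for the difference, and all 3 were lost with siEGFP as the only control. MX1 was called in each of the 12 fits that left out 1 array. RSAD2 was not called without A549 siKDM3A replicate 1 (adjusted p = 0.0824 by limma), A549 siKDM3A replicate 2 (0.0864), SW780 siKDM3A replicate 1 (0.0538) or SW780 siKDM3A replicate 2 (0.0737), and XAF1 was not called without any 1 of the same 4 arrays. OAS1 was lost in 4 of the 12 fits, MX2 in 7, CMPK2 in 8, OAS2 in 9 and CXCL11 in 10.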

How the results depend on the processing

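No called member reversed its sign under the alternatives run. The median change of the members in A549, 0.04, was 0.17 with siEGFP as the only control and -0.07 with siFFluc, and RTP4, not called there, was 0.32 ± 0.29 and -1.06 ± 0.29, adjusted p = 0.0381 by limma. Members called lower and higher under siKDM3A in A549 (4 and 2) numbered 1 and 8 with median scaling, 1 and 0 with no trend in the prior variance, 2 and 4 with siEGFP as the only control. The lower calls numbered 2 with quantile normalisation, and the higher calls 5 with only the 6 arrays of the line and 1 with siFFluc as the only control. In SW780 the 19 higher calls numbered 12 with only the line's arrays, and the 1 lower call numbered 2 with the mean of all kept probe sets, 0 with siEGFP as the only control and 2 with siFFluc. The 9 differences between the lines numbered 3 with no trend and 2 with siEGFP as the only control, and the 0 smaller ones 4 with median scaling. Between controls in A549 the 3 higher calls numbered 5 with a pseudocount of 64, 5 with quantile normalisation, 1 with no trend and 6 with only the line's arrays. In SW780 the 2 lower calls numbered 1 with no filter, with quantile normalisation, with the mean of probe sets and with every kept probe set tested on its own (chosen after seeing the data), and 0 with median scaling, no trend or only the line's arrays, which also left 0 of the 1 higher call. The causes were not tested. Shares of all genes called were counted for the main fit and, in SW780, for siKDM3A against each control alone. Member counts under the other settings, or with an array left out, have no such share beside them.

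With 1 array left out, the ranges were 0 to 5 higher and 0 to 6 lower in A549, 12 to 20 and 1 to 4 in SW780, 1 to 13 and 0 to 1 for the difference, 0 to 6 and 0 to 0 between controls in A549, 1 to 4 and 0 to 3 in SW780, and 8 to 8 and 28 to 30 between the lines.

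The replicate block, on numbers that did not pair the arrays, gave 17 higher and 1 lower in SW780, 2 and 3 in A549, 6 and 0 for the difference, 3 and 0 and 1 and 2 between controls, and 8 and 29 between the lines. Dim members such as CXCL10, RSAD2 and IFITM1 lie close to background, so their fold changes are the least precise.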
